A study of Mus musculus with 12 samples.

Results

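TRAJ26, TRAJ27 and TRAJ30 are 3 joining segments of the mouse T cell receptor alpha (TCRα) locus, and the clonotypes described here are the in-frame TCRα chains of newly developed thymic regulatory T cells (Treg) that were assigned to one of them. Members were chosen by the J segment named in each row, keeping rows whose CDR3 amino acid sequence had no stop codon and no frame break. A clonotype is a combination of V segment, CDR3 amino acid sequence and J segment, and its abundance is its number of unique molecular identifiers (UMIs), the tags that count each cDNA molecule once. The rule gave 778 TRAJ26, 1065 TRAJ27 and 605 TRAJ30 clonotypes, 2448 of the 20615 in-frame clonotypes (11.9%). They held 6788, 9951 and 3925 UMIs, 20664 of 190549 (10.8%).

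The cells were CD4+CD8−Thy1.1+GFP+ thymocytes, 100000 from each mouse, in which Thy1.1 reports Foxp3 and GFP under the Rag2 promoter marks recent development. Every mouse was a B6 animal of 3 weeks that carried the Rag2-Gfp, Foxp3-Thy1a and Kaa Tcrb transgenes and 1 null Tcra allele (Tcra+/null), so the β chain was fixed and a single α locus could rearrange productively. The groups were wild type (wt), Il2 null (Il2°) and Il15 null (Il15°), with 4 mice and 4 libraries each; the nulls are present in every cell of the animal. The fixed β chain, the TCRβ of a myelin-reactive response, limits these α chains to those that pair with it. The tables hold α chains alone, so neither the Treg label nor the genotypes were checked against marker genes, and fewer cells of a clonotype cannot be told apart from less Tcra RNA per cell. In-frame UMIs numbered 24811, 22890, 15427 and 16703 in the wt libraries, 12741, 17626, 14557 and 7293 in Il2°, and 17264, 13078, 10340 and 17819 in Il15°.

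An α chain is made when a V segment (TRAV) is cut and joined to a J segment (TRAJ), with trimming of both ends and addition of non-templated bases between them. The join encodes the CDR3, the loop that most often lies over the peptide in a peptide-MHC complex, and its C-terminal part comes from the J segment. Because a locus can rearrange again with a V further upstream and a J further downstream, the position of a J segment along the locus is related to the order in which segments are used. Each TRAJ therefore gives its clonotypes a recognisable tail of residues.

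The germline segments are shown because their CDR3 part recurs in all clonotypes below. They come from the GENCODE annotation of GRCm38 (mm10), lie on the plus strand of chromosome 14 and are each a whole TR_J gene: TRAJ26 at chr14:54194490-54194549, TRAJ27 at chr14:54192303-54192361 and TRAJ30 at chr14:54189866-54189924. Capitals mark the bases that fall in the CDR3, which end at the codon for its last phenylalanine.
TRAJ26: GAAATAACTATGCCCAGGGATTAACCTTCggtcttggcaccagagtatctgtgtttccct
TRAJ27: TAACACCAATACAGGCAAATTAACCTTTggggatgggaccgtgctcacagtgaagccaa
TRAJ30: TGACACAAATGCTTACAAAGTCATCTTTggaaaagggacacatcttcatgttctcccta
The capitals hold 29, 28 and 28 bases, and their complete codons encode NNYAQGLTF, NTNTGKLTF and DTNAYKVIF.

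The libraries were not fully independent of each other. Among the 66 pairs of libraries, 10 had at least 100 base sequences found in those 2 libraries alone (120 to 1231), while the other 56 pairs had 0 to 93 (median 16). These pairs formed a chain through the wt and Il2° libraries, from wt 1 through wt 2, Il2° 1, wt 3, wt 4, Il2° 4 and Il2° 3 to Il2° 2. A second chain ran from Il15° 1 through Il15° 4 and Il15° 3 to Il15° 2, with no such pair between Il15° and the other genotypes. In 55.8 to 95.8% of these sequences the lower of the 2 libraries held 1 UMI. Of the 3 segments, 774 sequences were shared in this way within the 10 pairs and 166 within all the others. Where these sequences came from was not tested. Segment use and its order, TRAV pairs, tested clonotypes, CDR3 measures, the TRAJ30 germline tail and counts of shared clonotypes were therefore also computed without rows of at most 2 UMIs that a linked library held with more UMIs, which removed 6.11% of all UMIs and 6.51%, 6.40% and 8.25% of those of TRAJ26, TRAJ27 and TRAJ30. This alternative was chosen after the sharing was seen.

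**Figure D1:**
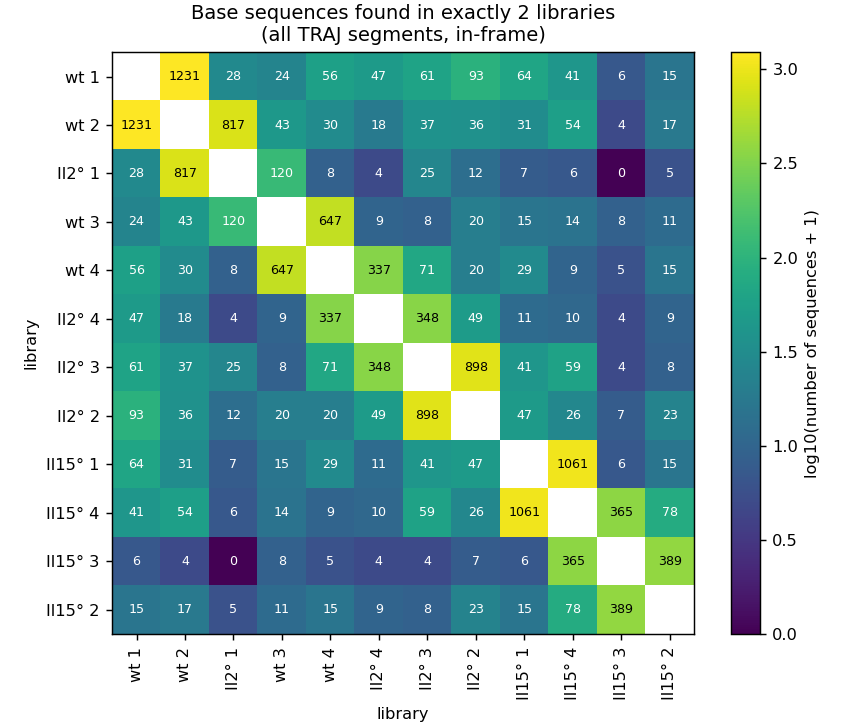
Number of in-frame CDR3 base sequences, over all TRAJ segments, found in exactly the 2 libraries of a row and a column; colour is log10(number + 1) and the libraries are ordered along the chains. The 10 pairs at 120 or more lie beside the diagonal, and the block of Il15° libraries has none with the other genotypes.

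TRAJ27 was the most used of the 3 segments, TRAJ26 came next and TRAJ30 last, in every library. TRAJ27 took 5.30% ± 0.537 (SD, n = 12) of in-frame UMIs and ranked 7 among the 43 TRAJ segments detected. TRAJ26 took 3.56% ± 0.289 (rank 11) and TRAJ30 2.02% ± 0.247 (rank 17). Within a library TRAJ27 exceeded TRAJ26 by 1.48-fold (1.30 to 1.92) and TRAJ26 exceeded TRAJ30 by 1.77-fold (1.42 to 2.64), both in 12 of 12 libraries, with an exact sign-flip permutation test at its smallest value (2-sided p = 0.000488 for each of the 3 orders compared, and 0.000488 after adjustment over them).

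Neighbouring segments had very different levels. TRAJ31, next to TRAJ30 on its V side, was the most used segment at 9.03% ± 1.04, whereas TRAJ28, between TRAJ30 and TRAJ27, held 0.263% ± 0.119. TRAJ24, next to TRAJ26 on the other side, held 0.977% ± 0.224. The order of the levels thus did not follow position along the locus within this stretch.

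**Figure D2:**
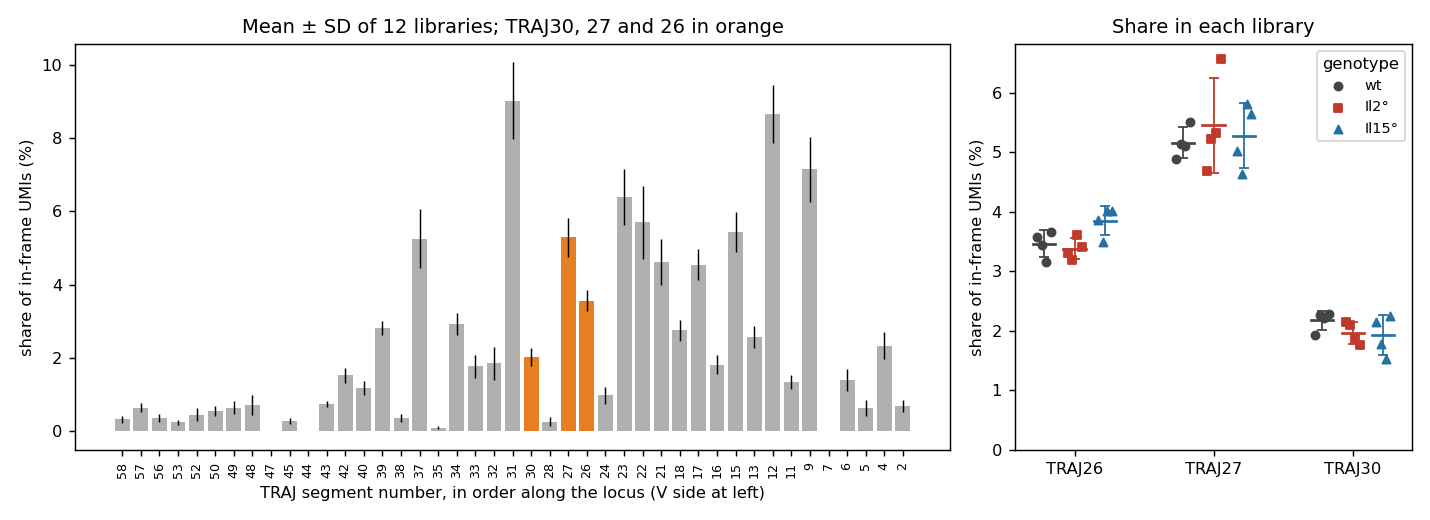
Left, share of in-frame UMIs (%) of each TRAJ segment in the order of the locus, mean ± SD of 12 libraries, with TRAJ30, TRAJ27 and TRAJ26 in orange at 2.02, 5.30 and 3.56%. Right, the share of these 3 segments in each library by genotype, with mean and SD of 4; the points of the 3 genotypes overlap for TRAJ27 and TRAJ30, and for TRAJ26 Il15° overlaps wt and Il2°.

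Loss of IL-2 or of IL-15 was not accompanied by a detectable change in the use of any of the 3 segments. TRAJ26 took 3.58, 3.45, 3.16 and 3.66% of the wt libraries, 3.30, 3.19, 3.61 and 3.41% of Il2° and 3.87, 3.49, 4.01 and 4.01% of Il15°. The Il15° libraries were mostly the highest, but Il15° 2 lay within the range of the others. The log2 fold change of TRAJ26 was −0.010 (SE 0.11) in Il2° as compared to wt, 0.21 (SE 0.11) in Il15° as compared to wt and 0.22 (SE 0.11) in Il15° as compared to Il2° (edgeR quasi-likelihood test, adjusted p = 0.979, 0.307 and 0.301).

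TRAJ27 took 4.89, 5.14, 5.11 and 5.51% in wt, 4.69, 5.23, 5.32 and 6.57% in Il2° and 5.02, 4.63, 5.81 and 5.65% in Il15°. The highest value came from Il2° 4, the shallowest library. Its log2 fold changes, in the same order of comparisons, were 0.10 (SE 0.12), 0.085 (SE 0.12) and −0.017 (SE 0.12), with adjusted p = 0.659, 0.735 and 0.967 (edgeR).

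TRAJ30 took 1.93, 2.26, 2.22 and 2.28% in wt, 2.14, 2.10, 1.85 and 1.76% in Il2° and 2.14, 1.78, 1.52 and 2.26% in Il15°. The genotypes overlapped, and Il15° spread the most. The log2 fold changes were −0.12 (SE 0.13), −0.12 (SE 0.13) and −0.00044 (SE 0.13), with adjusted p = 0.652, 0.705 and 0.997 (edgeR). Among all 40 segments tested, adjusted p was under 0.05 for 0% in Il2° as compared to wt, 5% in Il15° as compared to wt and 10% in Il15° as compared to Il2°. None of the 9 tests of the 3 segments passed by edgeR, DESeq2 or limma, and none had an unadjusted p under 0.05 by edgeR, against 7, 4 and 7 of all segments; by DESeq2, 1 had an unadjusted p under 0.05 in each comparison of Il15°, beside 6 of all 40 as compared to wt and 8 as compared to Il2°.

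The 3 segments together held 9.91 to 11.9% of a library. Counted in UMIs, a TRAJ26 clonotype averaged 4.39 ± 0.233 in wt, 3.15 ± 0.812 in Il2° and 5.10 ± 0.744 in Il15° (SD, n = 4). TRAJ30 clonotypes were smaller, at 3.71 ± 0.415, 2.58 ± 0.723 and 3.49 ± 0.462, and TRAJ27 clonotypes had 4.67 ± 0.516, 3.49 ± 0.808 and 4.98 ± 0.533. Over all segments the values were 4.82, 3.51 and 4.99, again lowest in Il2°; these means were not tested. The segments whose log2 share followed most closely over the 12 libraries, a description in which all points share libraries and totals, were TRAJ24 (Pearson r = 0.586) for TRAJ26, TRAJ13 (0.529) for TRAJ27 and TRAJ32 (0.778) and TRAJ28 (0.750) for TRAJ30.

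Each of the 3 segments was joined to TRAV7 more often than the other segments were, and TRAJ27 and TRAJ30 were joined to TRAV4 less often. TRAV families are given here by their number, with the near-identical D and N copies of the duplicated V region merged, because a read may be assigned to either of such copies. The share of a family within a segment was set against its share over all other TRAJ segments of the same library, by exact sign-flip permutation tests over the 12 libraries with p adjusted over 15 tests; these tests were added after the data had been seen, and linked libraries are not independent. For TRAJ26, TRAV7 made up 37.2% of UMIs against 19.5% for the other segments, higher in 12 of 12 libraries (adjusted p = 0.000916, the smallest these permutation tests can give). TRAV6 was lower over all libraries (7.67 against 9.82%, higher in 3 of 12, permutation adjusted p = 0.0135), but not in each genotype. It made up 6.43% ± 1.03 of TRAJ26 in wt and 6.23% ± 2.56 in Il15°, against 10.4% ± 1.33 in Il2° (SD, n = 4), where its share over all segments was 10.1%. TRAV4, the most used family of these libraries, did not stand apart with TRAJ26 (32.3 against 31.9%, higher in 7 of 12, permutation adjusted p = 0.806). For TRAV14 the test did not pass either (5.40 against 6.89%, higher in 1 of 12, permutation adjusted p = 0.364), but its mean rested on 1 library. Il15° 3 held 20.2%, whereas every other library was lower than with the other segments, at 2.63 to 5.99%.

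TRAJ27 was joined more often to TRAV7 and TRAV14 than the other segments were. TRAV7 made up 28.2% of its UMIs against 19.6% for the other segments, and TRAV14 14.03 against 6.44%, both higher in 12 of 12 libraries. TRAV4 made up 20.1 against 32.6% and TRAV6 6.40 against 9.93%, both lower in 12 of 12 (adjusted p = 0.000916 for each of these 4 families, exact permutation test). TRAV12 was close to the other segments at 8.58 against 9.88%, lower in 11 of 12 libraries (permutation adjusted p = 0.00293), but in 8 of 12 once the shared rows were left out. For TRAJ30, TRAV7 made up 39.2 against 19.7% (higher in 12 of 12) and TRAV4 21.7 against 32.1% (lower in 12 of 12; permutation adjusted p = 0.000916 for both). TRAV6 was higher with TRAJ30 (12.6 against 9.68%, 10 of 12, permutation adjusted p = 0.0104), unlike with the other 2 segments, and TRAV12 was lower (5.44 against 9.90%, higher in 1 of 12, permutation adjusted p = 0.00244). Families were tested where they made up at least 5% of the segment. Where a family reached this level only with the segment, its test counts among the 15 but is not given, since the limit had favoured a high share. Such families were TRAV3 with TRAJ26 (7.30 against 4.61% for the other segments) and TRAV8 with TRAJ27 (6.49 against 1.64%). The same limit left out families that were low with a segment, of which TRAV12 and TRAV10 were picked after they were seen, with no test given. TRAV12 made up 2.66% of TRAJ26 against 10.1% of the other segments. TRAV10 was low with all 3 segments. It made up 1.04% of TRAJ26 against 4.14%, 0.386% of TRAJ27 against 4.24% and 1.67% of TRAJ30 against 4.08%. In all, the segments were joined to 16, 17 and 16 TRAV families, at unequal numbers of UMIs.

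**Figure D3:**
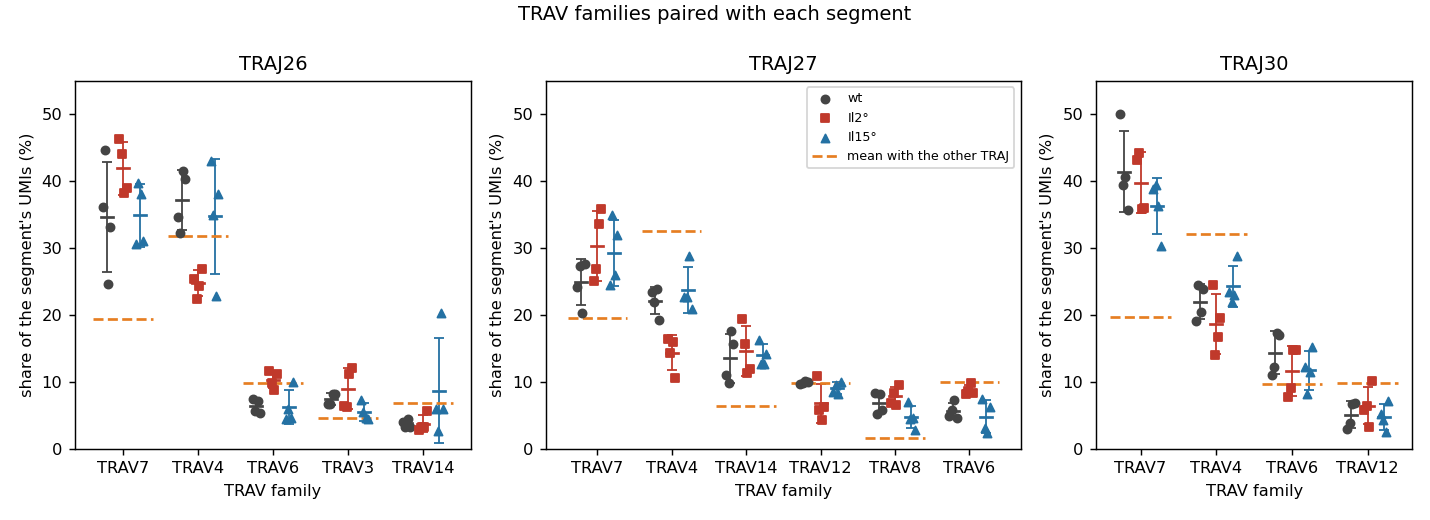
Share (%) of the UMIs of TRAJ26, TRAJ27 and TRAJ30 that were joined to each TRAV family with a mean of at least 5%, 1 point per library, with mean and SD of 4 libraries per genotype; the dashed line is the mean share of the family with all other TRAJ segments. TRAV7 lies above the line in all 3 panels, TRAV4 below it for TRAJ27 and TRAJ30, and Il15° 3 stands alone at 20.2% for TRAV14 with TRAJ26.

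Between genotypes, TRAV4 joined to TRAJ26 or TRAJ27 was more abundant in Il15° than in Il2°, where it was the lowest of the 3 genotypes, but both calls were lost with the shared rows left out and in 8 of the 12 fits that left out a single library. TRAV4-TRAJ26 took 1.24, 1.11, 1.31 and 1.48% of in-frame UMIs in wt, 0.840, 0.715, 0.879 and 0.919% in Il2° and 1.67, 1.22, 0.919 and 1.53% in Il15°. Every Il2° library was below every wt library, and of Il15° only Il15° 3 came down to the level of Il2° 4. The log2 fold change of Il15° as compared to Il2° was 0.70 (SE 0.22, adjusted p = 0.0430, edgeR).

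TRAV4-TRAJ27 took 1.14, 1.13, 1.22 and 1.07% in wt, 0.769, 0.749, 0.852 and 0.699% in Il2° and 1.14, 1.06, 1.67 and 1.18% in Il15°. Il2° overlapped neither of the other genotypes, and Il15° 3 was the highest library. The log2 fold change of Il15° as compared to Il2° was 0.74 (SE 0.22, adjusted p = 0.0361, edgeR). These pairs were 2 of the 3 that passed among 28 tested for the 3 segments; over all 248 pairs tested, 6.45% passed in this comparison, 1.21% in Il2° as compared to wt and 0% in Il15° as compared to wt.

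As compared to wt, the pairs of TRAV4 in Il2° had log2 fold changes of −0.65 (SE 0.22) with TRAJ26, −0.60 (SE 0.22) with TRAJ27 and −0.41 (SE 0.30) with TRAJ30. None of them passed (edgeR adjusted p = 0.103, 0.130 and 0.647), although DESeq2 gave adjusted p = 0.0214 and 0.0296 for the first 2. No pair of the 3 segments passed by edgeR in either comparison with wt, where 3 and 1 of 28 had an unadjusted p under 0.05 (34 and 19 of all 248) and DESeq2 called 2 and 0 (16 and 0 of all 248). TRAV4 as a whole took 33.9 to 38.6% of wt, 25.2 to 28.5% of Il2° and 30.4 to 34.9% of Il15° libraries. Of the 38 TRAV4 pairs tested over all TRAJ segments, 30 had a log2 fold change below 0 in Il2° as compared to wt (1 called, lower) and 27 above 0 in Il15° as compared to Il2° (5 called, higher), so the direction was not particular to these 2 segments.

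Within the segment, TRAV4 made up 34.6, 32.3, 41.5 and 40.4% of TRAJ26 in wt, 25.4, 22.4, 24.4 and 26.9% in Il2° and 43.1, 35.0, 22.9 and 38.1% in Il15°. For TRAJ27 the shares were 23.4, 21.9, 23.9 and 19.3% in wt, 16.4, 14.3, 16 and 10.6% in Il2° and 22.7, 22.8, 28.8 and 20.9% in Il15°. Every Il2° library lay below both other genotypes for TRAJ27, whereas for TRAJ26 Il15° 3 lay within the range of Il2°. With the shared rows left out, the Il15° to Il2° log2 fold changes were 0.74 and 0.75 and no longer passed (adjusted p = 0.0562 and 0.0532, edgeR). Leaving out single libraries moved adjusted p between 0.0196 and 0.190 for TRAV4-TRAJ26, which then passed only without wt 1, wt 3, Il15° 2 or Il15° 3, and between 0.00834 and 0.116 for TRAV4-TRAJ27, which passed only without wt 1, wt 3, wt 4 or Il15° 2. The log2 fold changes in these fits were 0.57 to 0.80 for TRAV4-TRAJ26 and 0.53 to 0.86 for TRAV4-TRAJ27.

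The third pair that passed, TRAV14 joined to TRAJ26, rested on 1 library. It took 0.145, 0.114, 0.143 and 0.120% of in-frame UMIs in wt, 0.0942, 0.102, 0.117 and 0.192% in Il2° and 0.232, 0.0918, 0.812 and 0.236% in Il15°, where Il15° 3 was far above the rest and Il15° 2 was the lowest of all 12. The log2 fold change of Il15° as compared to Il2° was 1.51 (SE 0.46, adjusted p = 0.0403, edgeR), and 0.59 (adjusted p = 0.571) without Il15° 3. With the shared rows left out it was 1.41 (adjusted p = 0.127), and with the replicate number as a block 1.22 (adjusted p = 0.0976). It passed only without wt 1, wt 4, Il2° 4 or Il15° 2 when single libraries were left out.

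The 84 UMIs of TRAV14-TRAJ26 in Il15° 3 belonged to 12 clonotypes, none of which held more than 21. The largest were TRAV14-2 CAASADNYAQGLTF with 21 UMIs, TRAV14D-1 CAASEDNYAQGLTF with 16, TRAV14D-3/DV8 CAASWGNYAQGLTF and a TRAV14D-1 clonotype of 15 residues with 12 each and TRAV14-2 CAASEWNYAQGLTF with 9. TRAV14D-1 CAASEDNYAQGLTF, TRAV14D-3/DV8 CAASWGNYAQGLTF and the clonotype of 15 residues were otherwise seen only in the linked library Il15° 4, at 2, 1 and 1 UMIs. In 10 of the 11 other libraries the largest TRAV14-TRAJ26 clonotype had 9 UMIs or fewer, and in Il15° 1 it was TRAV14D-3/DV8 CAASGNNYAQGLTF with 16.

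The CDR3 of TRAJ26 clonotypes was short and mostly of a single length, while those of TRAJ27 and TRAJ30 spread over a few lengths. CDR3 length is counted in amino acids from the first cysteine to the last phenylalanine. TRAJ26 had a mean of 11.7 ± 0.193 (SD, n = 12), rank 27 of the 28 segments measured, TRAJ27 12.6 ± 0.0739 (rank 23) and TRAJ30 13.0 ± 0.118 (rank 19), and the mean over segments was 13.2. Of TRAJ26 UMIs, 59.3% had 11 residues (48.4 to 70.7% over libraries), against 8.48% over all segments. TRAJ27 had 33.2% at 12 and 35.3% at 13 residues, and TRAJ30 34.3% at 13 and 32.7% at 14.

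Between genotypes none of the 9 length differences passed, nor did any of the 28 segments in any comparison (0%; limma). At unadjusted p under 0.05, 1 of the 3 segments was found in each comparison of Il15°, beside 3 of all 28 as compared to wt and 7 as compared to Il2°. The exact Mann-Whitney test, run as an alternative, called none, but its smallest p for 4 against 4 is 0.0286, which passes after adjustment only where most of the features reach it, so a count of 0 by this test says nothing about the measures here or below. The length of TRAJ27 was 12.7 ± 0.0185 in Il2° and 12.6 ± 0.0415 in Il15° (SD, n = 4), a difference of −0.14 (SE 0.045, limma adjusted p = 0.0853). Its 4 Il15° libraries lay at 12.5 to 12.6 and those of Il2° at 12.7, without overlap.

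**Figure D4:**
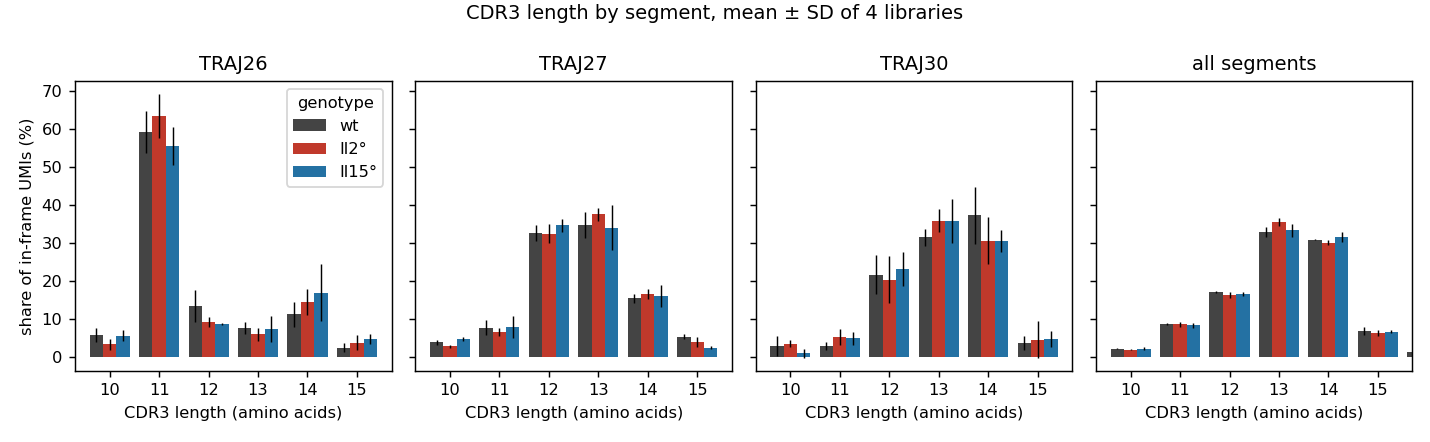
Share of in-frame UMIs (%) by CDR3 length in amino acids for TRAJ26, TRAJ27, TRAJ30 and all segments, bars giving the mean and SD of 4 libraries for each genotype. TRAJ26 stands at 59.3% for a length of 11, and the lengths of the other 2 segments centre on 12 to 14 in each genotype.

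Germline J residues at the C-terminal end were kept almost without exception, and the segments differed in how far the germline ran toward the V side. The last 6 residues, AQGLTF, TGKLTF and AYKVIF, were intact in 98.8%, 98.0% and 98.9% of UMIs. The last 8 were intact in 63.4% of TRAJ26, 67.4% of TRAJ27 and 82.8% of TRAJ30, and all 9 in 12.1%, 37.1% and 30.8%. At the ninth position from the end TRAJ26 most often carried alanine (25.7%) or valine (20.4%) rather than the germline asparagine (12.3%). TRAJ30 carried germline aspartate in 31.7% and glycine in 27.8%.

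In codons not wholly encoded by V or J, alanine and glycine led in TRAJ26 (20.7 and 16.4%) and in TRAJ27 (20.2 and 16.6%), and glycine and arginine in TRAJ30 (25.1 and 13.8%). The mean number of bases between V and J was 1.86 ± 0.191 in TRAJ26, 1.90 ± 0.183 in TRAJ27 and 2.56 ± 0.282 in TRAJ30 (SD, n = 12) as the tables assign them, against 2.19 over the segments measured. With J counted as the run of bases that matches the annotated segment these means were 2.003, 2.35 and 2.85. None of the segments measured, the 3 included, passed between genotypes in this number (0% called, limma, by the tables' assignment; unadjusted p under 0.05 for 0, 2 and 3 of 28 and for none of the 3).

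TRAJ30 clonotypes were assigned more J bases in Il15° than in Il2°, a call that was lost under some alternatives. The mean number of J bases in the TRAJ30 CDR3 was 25.4, 25.6, 25.5 and 25.8 in wt, 25.6, 24.9, 25.3 and 25.4 in Il2° and 25.9, 25.6, 26.6 and 26.2 in Il15°. Il15° 3 was the highest, and Il15° 2 was slightly below Il2° 1, so these 2 genotypes overlapped in 1 library each. The difference between Il15° and Il2° was 0.74 bases (SE 0.21, limma adjusted p = 0.0382), where 14.3% of the 28 segments passed, as against 3.57% in Il2° as compared to wt and 0% in Il15° as compared to wt. It was 0.47 (SE 0.21, adjusted p = 0.486) for Il15° as compared to wt. With the shared rows left out the difference of Il15° and Il2° was as large but did not pass (0.74, adjusted p = 0.0832, limma), and it passed without wt 1, wt 2, wt 3, wt 4, Il2° 1 or Il15° 2 but not without any of the other 6 libraries; without Il15° 3 it was 0.56 (adjusted p = 0.111). It did not pass when segments of at least 20 UMIs entered the fit (limma adjusted p = 0.0665).

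Part of these bases lay past the annotated start of the segment. Such assignments made up 2.94% of TRAJ26, 16.9% of TRAJ27 and 10.1% of TRAJ30 UMIs, and for TRAJ30 9.25% ± 1.55 in wt, 7.10% ± 1.63 in Il2° and 15.1% ± 5.29 in Il15° (SD, n = 4), with Il15° 3 the highest at 22.9%. Counting instead the longest run that matches the annotated segment from the end of the CDR3, an alternative added after the data were seen, TRAJ30 kept 25.0 ± 0.0979, 24.6 ± 0.126 and 25.1 ± 0.165 bases. Il15° then lay above Il2° without overlap, and the difference was 0.49 (SE 0.12, limma adjusted p = 0.0120), where 10.7% of the 28 segments passed. By this count Il15° as compared to wt differed by 0.17 (SE 0.12, limma adjusted p = 0.502, 0% of segments passed). Il2° as compared to wt differed by −0.32 (SE 0.12, limma adjusted p = 0.137, 3.57% passed), with every Il2° library below every wt library.

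The complete germline tail, a measure that depends on the J bases and is no second observation, was compared as well. The complete DTNAYKVIF tail made up 29.2, 29.0, 27.8 and 30.7% of TRAJ30 in wt, 28.9, 20.8, 22.6 and 22.7% in Il2° and 36.2, 30.9, 51.0 and 39.6% in Il15°. Il15° lay above both other genotypes without overlap, narrowly so for Il15° 2 against wt 4. The exact Mann-Whitney test was at its smallest value for 4 against 4 (2-sided p = 0.0286) in both comparisons, and 0.214 after adjustment over the 45 such tests, which were added after the data were seen. With the shared rows left out, the Il15° libraries held 31.2 to 55.1% and those of wt 27.5 to 31.5%, which overlapped, and those of Il2° 21.1 to 31.0%.

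The J bases of TRAJ26 and TRAJ27 did not pass in any comparison. TRAJ26 kept 23.7 ± 0.193 in wt, 24.2 ± 0.228 in Il2° and 23.8 ± 0.216 in Il15° (SD, n = 4), a difference of 0.49 (SE 0.16) in Il2° as compared to wt with a limma adjusted p of 0.0964, and of −0.40 (SE 0.16) in Il15° as compared to Il2° with a limma adjusted p of 0.143. TRAJ27 kept 25.7 ± 0.369, 25.6 ± 0.461 and 25.3 ± 0.143. Net charge, counted as lysine and arginine minus aspartate and glutamate, was −0.118 ± 0.0557 in TRAJ26, 0.973 ± 0.0530 in TRAJ27 and 0.678 ± 0.0973 in TRAJ30 (SD, n = 12). The germline tails of TRAJ27 and TRAJ30 each hold a lysine, that of TRAJ30 also holds an aspartate, and that of TRAJ26 holds neither. In Il15° as compared to Il2° its difference was −0.091 (SE 0.031) in TRAJ27 and −0.16 (SE 0.052) in TRAJ30, neither of which passed (limma adjusted p = 0.0706 for both). Of all 28 segments 10.7% passed for charge in this comparison, 10.7% in Il2° as compared to wt and 0% in Il15° as compared to wt. Of the 3 segments none passed by limma (unadjusted p under 0.05 for 2, 1 and 0, beside 8, 5 and 3 of all 28). With the replicate number as a block, the charge of TRAJ30 in Il15° as compared to Il2° did pass.

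**Figure D5:**
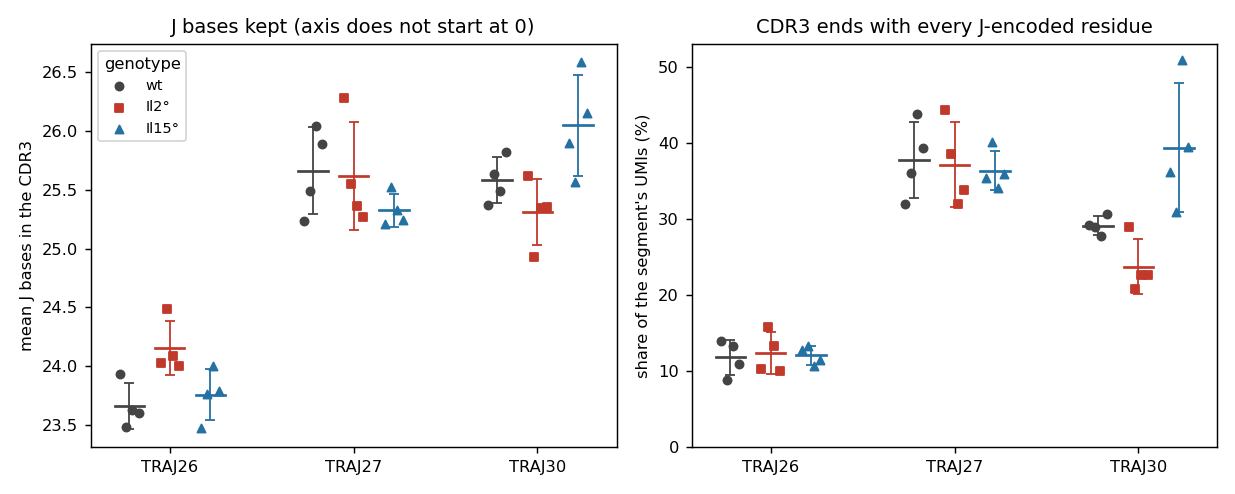
Left, mean number of J bases in the CDR3 per library (axis not from 0), and right, share (%) of the UMIs of the segment whose CDR3 ends in all 9 germline residues, by segment and genotype, with mean and SD of 4 libraries. For TRAJ30 the 4 Il15° libraries sit at 30.9 to 51.0% in the right panel, above wt at 27.8 to 30.7% and Il2° at 20.8 to 28.9%.

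The most abundant clonotype of each segment is printed with its leading base sequence, in which capitals mark the bases that the deposited tables assign to J; this assignment tolerates mismatches and can run past the annotated start of the segment, as it does by 2 bases in the TRAJ27 sequence.
TRAV7-3 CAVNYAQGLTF TRAJ26: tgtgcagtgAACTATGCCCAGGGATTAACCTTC
TRAV14-2 TRAJ27, 13 residues: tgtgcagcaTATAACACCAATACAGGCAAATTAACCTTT
TRAV7-4 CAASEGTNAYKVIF TRAJ30: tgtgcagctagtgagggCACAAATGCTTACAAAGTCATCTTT
TRAV7-3 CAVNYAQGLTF TRAJ26 held 0.330% of in-frame UMIs on average (0.110 to 0.463% over libraries), and the sequence shown made up 56.5% of it, with 0 bases between V and J. The TRAV14-2 clonotype of TRAJ27, which keeps the whole germline tail after a tyrosine, held 0.379% (0.222 to 0.604%), and the sequence shown made up 48.9%; the tables leave 0 bases between its V and J, but 30 bases are assigned to J where the annotated segment gives 28. TRAV7-4 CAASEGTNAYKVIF TRAJ30 held 0.132% (0.0688 to 0.197%), with 2 bases between V and J in the sequence shown, which made up 50.7%. All 3 were found in 12 of 12 libraries, encoded by 8, 8 and 7 base sequences.

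Among the leading 4 clonotypes of TRAJ26, 3 used TRAV7-3 and all had the 11-residue form: besides the one above, TRAV4D-3 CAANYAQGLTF TRAJ26 held 0.182%, TRAV7-3 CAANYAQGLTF TRAJ26 0.117% and TRAV7-3 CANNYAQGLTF TRAJ26 0.0892%. TRAV4D-3 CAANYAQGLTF TRAJ26 had 12 to 52 UMIs in 11 libraries and was listed at 0 in Il15° 3. For TRAJ27 the next 3 all used TRAV7-2 and began with CAAS, and they are named here by the fifth residue of the CDR3. The threonine form, of 12 residues, held 0.234%, the proline form, of 12 residues, 0.194% and the arginine form, of 13 residues, 0.163%. For TRAJ30 they were TRAV7-6 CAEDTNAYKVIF TRAJ30 at 0.0677%, TRAV7-2 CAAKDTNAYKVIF TRAJ30 at 0.0587% and TRAV7-1 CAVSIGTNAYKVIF TRAJ30 at 0.0542%. The same CDR3 was joined to several V families: 52 of the 612 TRAJ26 CDR3s were found with more than 1 TRAV family and held 48.4% of TRAJ26 UMIs, against 36.3% of TRAJ27 UMIs (70 of 859 CDR3s), 24.6% of TRAJ30 (30 of 507) and 31.1% over all segments.

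No clonotype of the 3 segments passed the test between genotypes by edgeR. Of the 647 clonotypes that reached 5 UMIs in 4 or more libraries, 66 belonged to them (22, 33 and 11), and those with an unadjusted p under 0.05 numbered 2 in Il2° as compared to wt, 4 in Il15° as compared to wt and 7 in Il15° as compared to Il2°, beside 53, 40 and 92 of all 647. Over all 647 the test called 0%, 0% and 0.618%. DESeq2 called 0, 1 and 1 clonotype of the 3 segments and 5, 9 and 13 of all 647. In the 3 segments it was the same one in both comparisons of Il15°, the TRAV7-2 TRAJ27 clonotype with lysine as the fifth residue. In Il2° as compared to wt DESeq2 gave no adjusted p for some clonotypes, which therefore could not be called. Among them were TRAV7-4 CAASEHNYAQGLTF TRAJ26 and TRAV4D-3 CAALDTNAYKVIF TRAJ30. The shares of Il2° and wt did not overlap for 1, 2 and 1 clonotypes of TRAJ26, TRAJ27 and TRAJ30, those of Il15° and wt for 1, 2 and 1, and those of Il15° and Il2° for 3, 3 and 0, where 7.57, 6.49 and 8.19% of all 647 did not overlap.

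This lysine form was listed at 0 in all 4 Il15° libraries. It was picked as the largest change without overlap, and it reached 5 UMIs in 4 libraries through wt and Il2° alone. The fold bounds and p below thus come from the values that chose it and are no separate support. It had 12, 12, 12 and 10 UMIs in wt and 2, 5, 10 and 3 in Il2°. It is shown beside the arginine form, which has the same V, J and CDR3 length.
TRAV7-2 TRAJ27, lysine form: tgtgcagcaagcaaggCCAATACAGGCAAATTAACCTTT
TRAV7-2 TRAJ27, arginine form: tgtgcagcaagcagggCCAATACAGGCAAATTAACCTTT
The share that 3 UMIs over the 58501 in-frame UMIs of Il15° would give is 0.00513%. Against it, the lysine form was at least 11.2-fold lower in Il15° than in wt (0.0576%). It was at least 7.47-fold lower than in Il2° (0.0383%). These bounds pool the 4 libraries of a genotype, so they cover counting error only and not the spread between mice. The edgeR adjusted p was 0.117 and 0.0993, and DESeq2 gave 0.00403 and 0.0113; with the shared rows left out edgeR gave 0.339 and 0.281. The arginine form had 29, 21, 17 and 46 UMIs in the same Il15° libraries, 40, 33, 15 and 17 in wt and 6, 30, 29 and 21 in Il2°.

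The most abundant TRAJ30 clonotype was also the one whose shares did not overlap between Il15° and wt. TRAV7-4 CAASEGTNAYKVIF TRAJ30 had 47, 45, 26 and 24 UMIs in wt, 14, 25, 21 and 7 in Il2° and 22, 9, 8 and 22 in Il15°. Its share was 0.189, 0.197, 0.169 and 0.144% in wt and 0.127, 0.0688, 0.0774 and 0.123% in Il15°, with Il2° between 0.0960 and 0.144%. The log2 fold change of Il15° as compared to wt was −0.84 (SE 0.52) and did not pass (edgeR adjusted p = 0.926, DESeq2 adjusted p = 0.514).

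The other clonotypes named for genotypes that did not overlap had few UMIs. Each was picked as the largest change without overlap in a comparison. Each also reached 5 UMIs in 4 libraries without any library of the genotype where it was low. The low counts and the p given here thus come from the values that chose these clonotypes and are no separate support. TRAV7-4 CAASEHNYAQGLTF TRAJ26 was counted 9, 11, 2 and 4 times in wt, 1, 0, 0 and 0 times in Il2° and 4, 4, 10 and 7 times in Il15° (edgeR adjusted p = 0.474 for Il2° as compared to wt and 0.212 for Il15° as compared to Il2°). TRAV4D-3 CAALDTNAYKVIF TRAJ30 had 10, 5, 7 and 7 UMIs in wt and 0, 0, 1 and 0 in Il2°, whereas Il15° 1 and Il15° 4, a linked pair, held 8 and 10 and the other 2 Il15° libraries 0. TRAV7-3 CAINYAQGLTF TRAJ26 had 4, 9, 3 and 9 UMIs in wt, 5, 9, 3 and 2 in Il2° and 0, 2, 0 and 0 in Il15°. A TRAV4D-3 TRAJ27 clonotype of 12 residues had 7, 8, 10 and 7 UMIs in wt and 0, 1, 0 and 2 in Il2°, while Il15° held 23, 0, 0 and 3, the highest library and a pair of zeros among them. None of these differences passed by edgeR, and a count of 0 in a library does not show that a clonotype was absent.

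The share of private clonotypes, found in 1 library, was close to that over all segments (50.8% of TRAJ26, 50.6% of TRAJ27 and 51.1% of TRAJ30, against 52.6% over all segments), and with the shared rows left out 68.6, 66.9 and 70.7%, against 68.6% over all segments. Clonotypes found in all 4 libraries of a genotype numbered 18 in wt, 19 in Il2° and 11 in Il15° for TRAJ26, 35, 20 and 20 for TRAJ27 and 12, 7 and 8 for TRAJ30, against 618, 423 and 403 over all segments. They held 36.2, 37.9 and 26.7% of the TRAJ26 UMIs of their genotype, 41.6, 36.0 and 38.0% for TRAJ27 and 27.4, 21.1 and 18.9% for TRAJ30. Whether a clonotype is found in all 4 libraries depends on their depth, which was unequal. The shallowest wt library, wt 3, held 15427 in-frame UMIs, whereas Il2° 4 held 7293 and Il15° 3 held 10340. These counts and shares are given at that unequal depth, so alone they do not show a difference between genotypes. The counts also depended on the rows shared between linked libraries and were not tested. Leaving out rows can only lower such counts and raise the private share, wherever the rows came from. Without the shared rows, the clonotypes found in all 4 libraries numbered 9, 9 and 5 for TRAJ26, 18, 12 and 13 for TRAJ27 and 9, 3 and 3 for TRAJ30, against 399, 226 and 194 over all segments. They then held 29.2, 32.1 and 17.4% of the UMIs of TRAJ26, 36.1, 31.9 and 33.9% of TRAJ27 and 20.3, 13.1 and 8.86% of TRAJ30. In all 12 libraries, 5, 8 and 3 clonotypes were found, and 2, 7 and 1 without the shared rows.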

How the data were processed

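The authors made TCRα libraries from total RNA of sorted thymic Treg, built UMI consensus sequences with pRESTO (UMIs with at least 2 reads), assigned segments with MiXCR and wrote VDJtools tables (per the processing notes, build mm10; other versions are not given in the sources used here). The deposited tables hold the UMI count of each TCRα sequence and the same value as a fraction of the library; the counts were used, the fraction was not. In-frame UMIs per library ranged from 7293 to 24811.

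Counts were summed per TRAJ, TRAV family and TRAJ, or clonotype, and fitted over all features with edgeR 4.0.16 (quasi-likelihood, TMM; at least 10 UMIs, or 5 for clonotypes, in at least 4 libraries). CDR3 measures were fitted with limma 3.58.1 (at least 50 UMIs in every library). All 12 libraries entered each fit, and p was adjusted by Benjamini-Hochberg within a comparison, threshold 0.05. DESeq2 1.42.0, exact tests (scipy 1.17.1) and the settings named in the closing section were alternatives. The fits were tested on simulated data. Libraries are from individual mice, no 2 held identical values, and no source pairs mice by replicate number.

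Named clonotypes were the 4 most abundant of each segment and, per comparison, the largest change without overlap; TRAV families were those of at least 5%. Members and lists were chosen with earlier results of these data known.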

Additional observations from a re-analysis of the deposited data

Results flagged for a closer look

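Of 135 groups of 4 libraries examined, 3 held a library far from the other 3 (by Dixon's critical value for the gap over the range); chance marks about 1 in 20 groups, so this number is below what chance gives. TRAV14 made up 5.62% of TRAJ26 UMIs in Il2° 4 and 2.85 to 3.24% in the other Il2° libraries. TRAV7-3 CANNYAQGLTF TRAJ26 held 0.0389% of in-frame UMIs in wt 3 and 0.109 to 0.117% in the other wt libraries. The arginine form of the TRAV7-2 TRAJ27 clonotypes held 0.258% in Il15° 4 and 0.161 to 0.168% in the other Il15° libraries.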

How the results depend on the processing

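None of the 216 alternative values for the use of the 3 segments passed (lowest adjusted p = 0.109), and 16 changed sign, all near 0: TRAJ26 in Il2° as compared to wt was 0.010 with each clonotype counted once, TRAJ30 in Il15° as compared to wt 0.030 with each counted once, and TRAJ30 in Il15° as compared to Il2° 0.017 without a filter, 0.076 with each counted once and 0.029 without clonotypes of 1 UMI. Leaving out single libraries gave log2 fold changes of −0.068 to 0.018 for TRAJ26 in Il2° and −0.011 to 0.15 for TRAJ27 in Il2° as compared to wt, and of −0.080 to 0.097 for TRAJ27 and −0.074 to 0.11 for TRAJ30 in Il15° as compared to Il2°. TRAV4-TRAJ26 in Il15° as compared to wt was −0.087 as a share within the segment, −0.097 as the ratio of mean shares set beside the exact Mann-Whitney test and −0.082 to 0.22 with single libraries left out, TRAV4-TRAJ27 in Il15° as compared to wt −0.085 with each clonotype counted once, and TRAV14-TRAJ26 in Il2° as compared to wt 0.026 with the shared rows left out and −0.37 to 0.0024 with single libraries left out. Of the 3 segments' TRAV pairs, Il15° as compared to Il2° called 1 without a filter, 1 as shares within the segment, 1 with each clonotype counted once, and 0 by V segment names, or with the shared rows left out, and 0 to 3 with single libraries left out; Il2° as compared to wt called 2 by DESeq2 and 1 as shares within the segment, and Il15° as compared to wt 0 to 1 with single libraries left out. DESeq2 called 1 clonotype in each comparison of Il15°. CDR3 measures in Il15° as compared to Il2° gave 0 calls with the shared rows left out or with segments of at least 20 UMIs, and 0 to 2 with single libraries left out. The exact Mann-Whitney test called 0 pairs and 0 CDR3 measures, but its smallest p of 0.0286 passes after adjustment only where most features reach it, so these counts say nothing about stability. With J bases counted as the run that matches the annotated segment, the TRAJ30 difference was 0.49 and still passed. Counts of clonotypes in all 4 libraries, which leaving out rows can only lower, fell with the shared rows left out to 9, 9 and 5 (TRAJ26), 18, 12 and 13 (TRAJ27) and, in Il2° and Il15°, 3 and 3 (TRAJ30). They need all 4 libraries, so none was left out in turn. Where the construction of an alternative does not show it, the cause was not tested. Low counts limit single clonotypes.

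Samples with the same replicate number did not as a rule deviate together (r of −0.492 to 0.405 over 12 pairs, above 0.1 in 4). The highest r was that of wt 4 and Il2° 4, which are also a linked pair. These r cannot show that the numbers pair no mice, but no source pairs them. With the replicate number as a block, TRAJ26 in Il15° as compared to Il2° had a log2 fold change of 0.21, and the calls in Il15° as compared to Il2° were 2 pairs, TRAV4 with TRAJ26 and with TRAJ27, and 2 CDR3 measures, J bases and charge of TRAJ30; the block called nothing else among the 3 segments.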
